A study of Mus musculus with 10 samples.

Results

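The collagen genes of the mouse mammary epithelium were followed in sorted luminal and basal cells. Members were taken by name: every gene of the count table whose mouse symbol reads Col, a number, a and a number, which gave 44 of 24594 genes. They were ordered by the kind of structure their protein builds, with 8 genes of basement-membrane collagens, 11 of fibrillar collagens, 4 of transmembrane collagens and 9 of fibril-associated collagens. The type VI collagens of beaded filaments hold 6 genes, the short-chain network collagens 3, the anchoring-fibril collagen 1, and 2 further genes belong to none of these.

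The libraries came from wild type C57BL/6J mice, with 5 libraries of luminal and 5 of basal cells. Glands were dissociated with collagenase and hyaluronidase, then trypsin and dispase, and both populations were separated by flow cytometry on EpCAM and CD49f. The isolation protocol of the study also stains red blood, endothelial and immune cells with antibodies to TER-119, CD31 and CD45, which the labels do not name for these libraries. No transgene, treatment or age is given in the labels, and nothing there says whether each library is a separate animal, so p-values measure the spread between these libraries only. Library titles name the opposite cell type to the cell type field and the source name in all 10 libraries. Groups here follow the cell type field, and with it all 9 luminal marker genes were higher in the luminal libraries and all 7 basal marker genes in the basal libraries. Gene counts summed to between 13203146 and 17998165 per library. Levels are given as CPM, counts scaled to a common library size with the trimmed mean of M values (TMM), and, wherever genes are set against each other, as CPM per kilobase of the longest annotated transcript. Each bulk library averages over many cells, so that fewer cells of a type and less RNA per cell cannot be told apart.

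Collagens are built from 3 chains that wind into a triple helix, either 3 copies of one chain or a mixture of related chains. Type IV collagen forms the sheet-like network of the basement membrane on which the basal (myoepithelial) cells of the mammary duct rest, whereas types I, III and V form the fibrils of the stroma and are made mainly by fibroblasts. Luminal cells face the lumen and mostly touch the basement membrane only where the basal layer is open. Mature chains need hydroxylation of proline and lysine and the help of dedicated chaperones before they leave the endoplasmic reticulum.

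Basal cells held most of the collagen transcripts. Collagen genes took 0.0384%, 0.0247%, 0.0305%, 0.0254% and 0.0324% of all counts in luminal libraries 1 to 5. In basal libraries 1 to 5 they took 0.269%, 0.366%, 0.339%, 0.261% and 0.272%. Every basal library lay far above every luminal one, and the mean share was 9.96-fold higher in basal cells. The log2 share differed by -3.32 (luminal minus basal), with an exact two-sided permutation p of 0.00794, the smallest that 5 against 5 libraries can give.

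Of the 44 genes, 33 passed the filter on low counts, which asks for 5 libraries over a minimum. Of these, 10 reached that minimum in all basal but not all luminal libraries (3 of them, Col6a4, Col26a1 and Col27a1, in no luminal library), and 3, Col8a1, Col6a3 and Col8a2, in all luminal but not all basal libraries. With edgeR's quasi-likelihood test and Benjamini-Hochberg adjustment over all 14609 genes tested, 22 of the 33 were higher in basal cells, or 66.7%, where 31.2% of all genes tested were. Another 4 were higher in luminal cells, or 12.1%, against 33.6% of all genes tested, and 7 did not pass the test. The luminal count was 7 with offsets for GC content and length and 6 with upper-quartile scaling or library totals. The median log2 fold change (luminal minus basal) over the 33 genes was -2.91, beside 0.05 over all genes tested. All 5 basal libraries lay above all 5 luminal ones for 21 of the 33 genes, against 25.3% of all genes tested. Luminal libraries lay above every basal library for 1 gene, Col8a1, against 24.7% of all genes tested. Only 19 of the 33 had at least 10 counts in every library. When testing was limited to such genes, 3706 of all genes were higher in basal and 4178 in luminal cells. Among collagen genes, 14 were higher in basal cells and 1 in luminal cells. That gene was Col6a6 (log2 fold change 1.53, edgeR adjusted p = 0.0424), which did not pass the test among all 14609 genes, and the 4 genes called in luminal cells, Col8a1, Col6a3, Col11a2 and Col8a2, all fell out because of low basal counts. The remaining 11 genes were too low to test, and none of them exceeded 1.71 CPM in any library: Col4a3, Col6a5, Col19a1, Col22a1, Col9a1, Col24a1, Col2a1, Col5a3, Col28a1, Col10a1 and Col13a1.

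**Figure D1:**
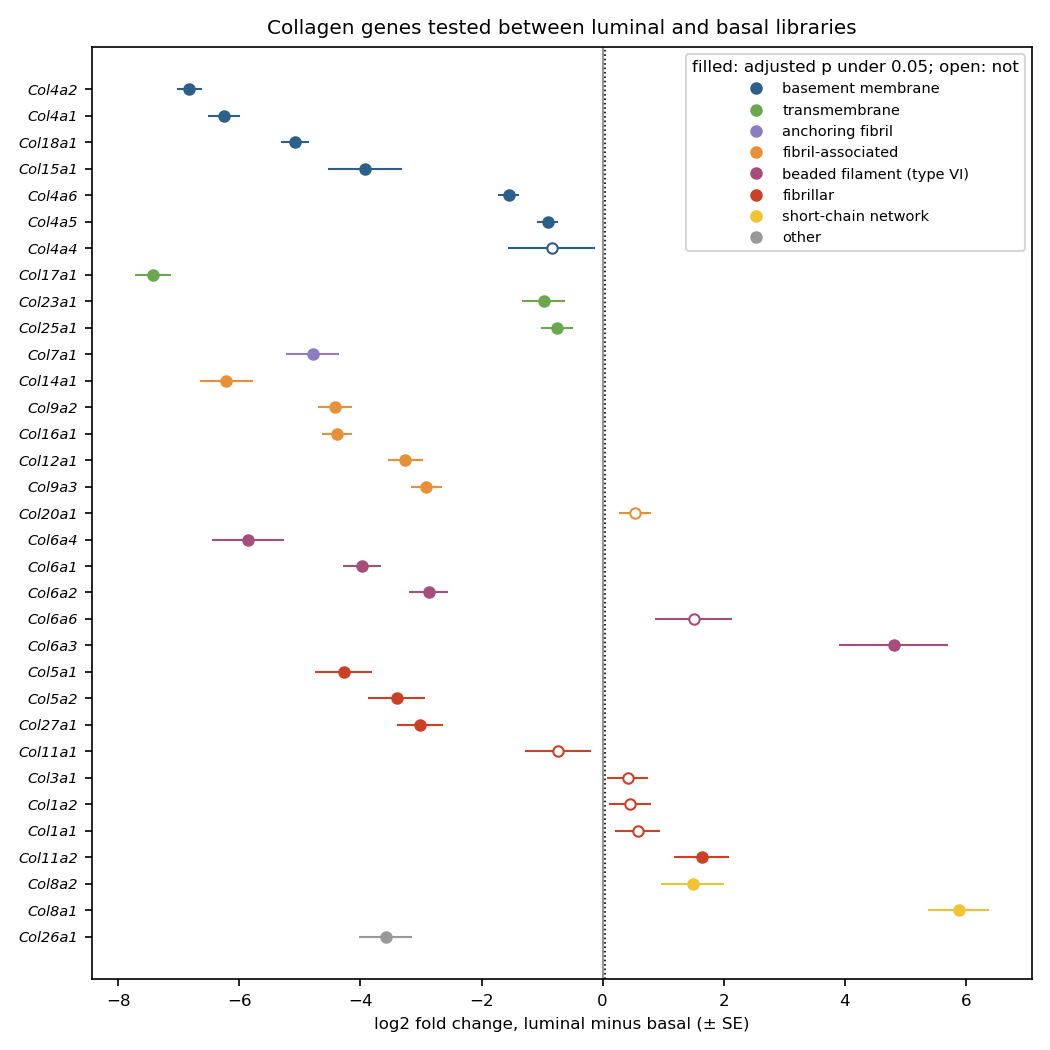
Log2 fold change (luminal minus basal, horizontal axis, with its standard error) of the 33 collagen genes tested, coloured by class, with the median of all genes tested as a dotted line. Filled points passed the test and open points did not: 22 filled points lie on the basal side, from Col17a1 at -7.42 to Col25a1 at -0.76, and 4 on the luminal side, led by Col8a1 at 5.88.

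Col4a1 and Col4a2, whose products join into the main type IV network of nearly all basement membranes, were the 2 highest collagens of the basal cells per length. Col4a1 stood at 784, 1020, 936, 568 and 666 CPM in basal libraries 1 to 5 and at 10.8, 8.90, 8.04, 8.70 and 15.7 CPM in luminal libraries 1 to 5. Col4a2 stood at 641, 891, 863, 630 and 599 CPM in basal cells and at 6.19, 5.21, 7.05, 6.11 and 7.42 CPM in luminal cells. The lowest basal library was far above the highest luminal library for both genes. The log2 fold change was -6.25 ± 0.26 (SE, n = 5 and 5) for Col4a1, with an edgeR adjusted p of 2.28e-10. It was -6.82 ± 0.21 for Col4a2, with an edgeR adjusted p of 2.75e-11, so that their mean levels were 76.3-fold and 113-fold higher in basal cells. With offsets for the GC content and length of each gene the log2 fold change of Col4a2 was -6.20.

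The other expressed type IV pair behaved differently. Col4a5 and Col4a6 encode chains that join in a second type IV network, found in the basement membranes of several epithelia and around smooth muscle. Col4a5 gave 110, 138, 106, 105 and 118 CPM in basal libraries 1 to 5 and 83.9, 63.6, 61.9, 39.5 and 59.1 CPM in luminal libraries 1 to 5. Col4a6 gave 136, 186, 164, 147 and 169 CPM in basal cells and 64.4, 55.0, 59.3, 32.5 and 61.6 CPM in luminal cells. The groups did not overlap for either gene, with the closer margin for Col4a5, and luminal library 4 was the lowest of all. Col4a5 was 1.88-fold higher in basal cells (log2 fold change -0.91 ± 0.17, edgeR adjusted p = 3.85e-04), and Col4a6 was 2.94-fold higher (-1.55 ± 0.18, edgeR adjusted p = 3.08e-06). Per length these were the 2 highest collagens of the luminal cells, with Col4a5 at 9.42 and Col4a6 at 8.21 CPM per kb against 1.57 for Col4a1 and 0.992 for Col4a2.

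The third pair, Col4a4 and Col4a3, is known from the basement membrane of the kidney glomerulus and was low in both cell types. Col4a4 stood at 2.22 ± 0.881 CPM (SD, n = 5) in basal cells and at 1.26 ± 1.44 CPM (SD, n = 5) in luminal cells, where luminal library 4 alone held 3.74 CPM. It did not pass the test (log2 fold change -0.84 ± 0.71, edgeR adjusted p = 0.316), and without luminal library 4 it did (-1.79, edgeR adjusted p = 0.0262). Its log2 fold change was -0.15 with offsets for GC content and length (edgeR adjusted p = 0.871), -1.43 with the replicate numbers as a block (0.168) and -1.88 with limma voom (limma adjusted p = 0.0570), none of them called. Col4a3 was not tested, with 1.12 and 1.71 CPM in basal libraries 1 and 2 and at most 0.310 CPM in every other library.

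In the mouse genome the 6 type IV genes lie as 3 pairs of neighbours that are transcribed away from each other. By the RefSeq gene positions on GRCm38, Col4a1 (chr8:11198423-11312889, minus strand) and Col4a2 (chr8:11312805-11449287, plus strand) overlap by 85 bases, and Col4a6 (chrX:141165403-141474095, minus strand) and Col4a5 (chrX:141475370-141689236, plus strand) lie 1274 bases apart. The library kit does not mark the strand of a read, but Col4a1 shares only 22 exon bases with Col4a2. The RefSeq windows of GRCm38.p6 from 250 bases before to 50 bases after each start are printed here for these 4 genes. They are shown because each pair divides a stretch of DNA between 2 collagens, and one pair differed strongly between the cell types while the other differed less. Windows are given 5′ to 3′ on the strand of the gene. Capitals mark each match, on either strand, to the letters of the CCAAT box or to GGGCGG, the core of the GC box, so that a match on the other strand reads as its reverse complement, and no matches overlap. The Col4a1 window is chr8:11312777-11313076 (minus strand), that of Col4a2 chr8:11312555-11312854 (plus strand), that of Col4a5 chrX:141475169-141475468 (plus strand) and that of Col4a6 chrX:141474027-141474326 (minus strand).
Col4a1: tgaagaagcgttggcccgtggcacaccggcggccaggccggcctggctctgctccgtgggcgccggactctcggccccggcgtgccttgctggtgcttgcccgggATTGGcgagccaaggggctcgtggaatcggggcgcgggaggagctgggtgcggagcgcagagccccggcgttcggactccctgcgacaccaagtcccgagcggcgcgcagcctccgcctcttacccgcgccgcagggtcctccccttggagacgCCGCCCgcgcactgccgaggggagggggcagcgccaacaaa
Col4a2: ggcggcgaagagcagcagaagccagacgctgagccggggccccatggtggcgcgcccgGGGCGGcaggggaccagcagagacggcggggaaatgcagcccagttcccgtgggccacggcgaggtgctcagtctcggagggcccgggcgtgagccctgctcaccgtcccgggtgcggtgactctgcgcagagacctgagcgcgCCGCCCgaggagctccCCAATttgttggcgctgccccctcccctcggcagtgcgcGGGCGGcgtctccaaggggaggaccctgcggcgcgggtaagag
Col4a5: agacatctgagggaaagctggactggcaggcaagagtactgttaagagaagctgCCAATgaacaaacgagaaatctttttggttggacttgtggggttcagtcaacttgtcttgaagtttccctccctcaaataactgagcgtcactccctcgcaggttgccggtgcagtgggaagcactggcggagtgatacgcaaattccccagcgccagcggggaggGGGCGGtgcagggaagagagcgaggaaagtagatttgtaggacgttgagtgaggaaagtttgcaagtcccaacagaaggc
Col4a6: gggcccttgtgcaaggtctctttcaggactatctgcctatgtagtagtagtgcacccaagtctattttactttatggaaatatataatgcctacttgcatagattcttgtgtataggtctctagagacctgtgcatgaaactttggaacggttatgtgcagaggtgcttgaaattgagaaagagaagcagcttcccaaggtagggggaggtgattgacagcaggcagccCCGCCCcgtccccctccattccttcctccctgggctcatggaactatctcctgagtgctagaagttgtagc

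The Col4a1 and Col4a2 windows share 78 bases, each the reverse complement of the other there, and their starts are 21 bases apart. The starts of Col4a5 and Col4a6 are 1343 bases apart and their windows do not meet. Each of the Col4a1, Col4a2 and Col4a5 windows holds 1 match to CCAAT, and that of Col4a6 holds none; 37.4% of the 32851 windows of the table hold one. A match to GGGCGG is found 3 times in the Col4a2 window and once in each of the other 3, beside 35.7% of all windows with at least one. No window of the 4 holds TATAAA on either strand, a sequence present in 13.6% of all windows. The G and C content is 74.0% for Col4a1 and 73.7% for Col4a2, and 52.7% for Col4a5 and 48.3% for Col4a6. Over the 38 windows found for 35 of the 44 collagen genes, 13 hold CCAAT, 23 hold GGGCGG and 5 hold TATAAA.

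Col18a1 and Col15a1 encode the multiplexin collagens of the basement-membrane zone, and the end piece of collagen XVIII is released as endostatin. Col18a1 stood at 329, 356, 339, 251.8 and 332 CPM in basal libraries 1 to 5 and at 6.07, 6.74, 11.4, 12.1 and 11.4 CPM in luminal libraries 1 to 5. The groups were far apart, and basal library 4 was the lowest basal library. Its log2 fold change was -5.08 ± 0.23 (edgeR adjusted p = 3.51e-10), and -4.48 with offsets for the GC content and length of each gene. Col15a1 was much lower, at 4.81 ± 1.86 CPM in basal cells and 0.302 ± 0.302 CPM in luminal cells (SD, n = 5 each; -3.93 ± 0.61, edgeR adjusted p = 6.02e-05), and its change reached -4.56 without luminal library 5. In all, 6 of the 7 basement-membrane collagens tested were higher in basal cells (85.7%, against 31.2% of all genes tested), and none was higher in luminal cells (against 33.6%).

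**Figure D2:**
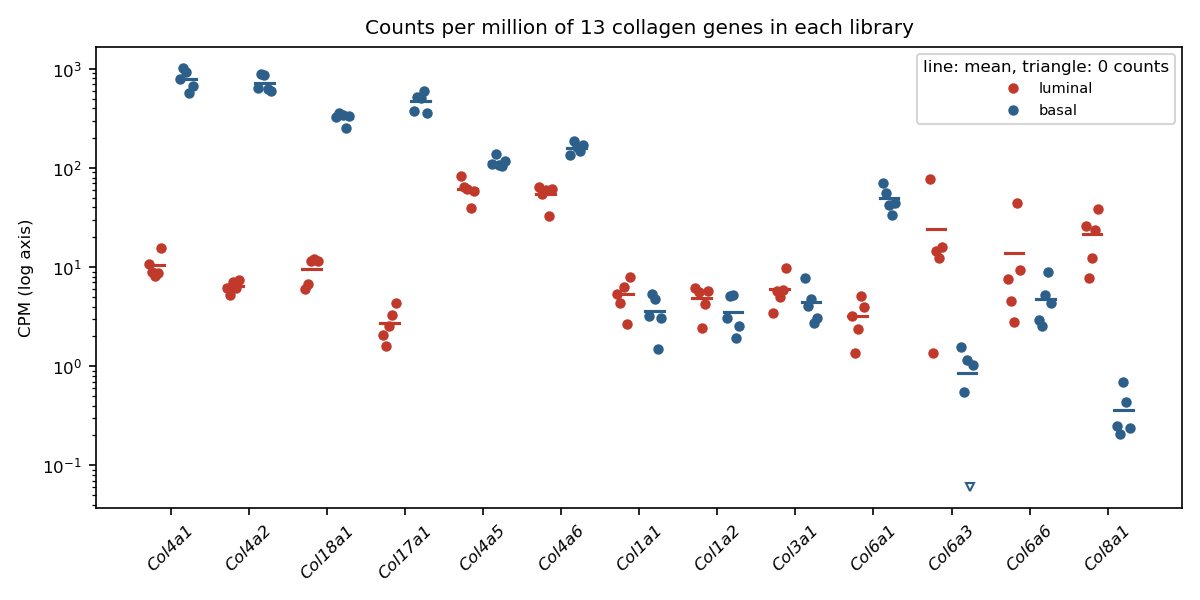
CPM (log axis) of 13 collagen genes in each of the 5 luminal (red) and 5 basal (blue) libraries, with the mean as a line and a library with 0 counts as an open triangle at the bottom. Col4a1, Col4a2, Col18a1 and Col17a1 are separated by wide gaps and Col4a5 and Col4a6 by smaller ones, Col1a1, Col1a2 and Col3a1 overlap, and Col8a1 is high in luminal libraries only.

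Col17a1, the transmembrane collagen that anchors basal cells to the basement membrane through hemidesmosomes, had the largest fold change of all collagens. It stood at 378, 517, 509, 590 and 357 CPM in basal libraries 1 to 5 and at 2.06, 1.58, 2.51, 3.28 and 4.31 CPM in luminal libraries 1 to 5. No luminal library came near any basal one, and the mean was 171-fold higher in basal cells (log2 fold change -7.42 ± 0.30, edgeR adjusted p = 1.40e-10). The 2 other transmembrane collagens that were tested differed less between the cell types. Col23a1 averaged 4.50 ± 1.76 CPM in basal and 2.3 ± 0.633 CPM in luminal cells (SD, n = 5 each; -0.97 ± 0.35, edgeR adjusted p = 0.0269). Col25a1, first described in amyloid plaques and needed for motor nerves to reach muscle, averaged 5.49 ± 0.988 and 3.25 ± 0.756 CPM (-0.76 ± 0.27, edgeR adjusted p = 0.0224). Neither call was stable. With offsets for GC content and length the log2 fold change was -0.63 for Col23a1 (edgeR adjusted p = 0.141) and -0.28 for Col25a1 (0.359), and with scaling by library totals alone the edgeR adjusted p was 0.0729 and 0.0722. Leaving out luminal library 2 or 5 or basal library 2, 4 or 5 also ended the call of Col23a1 (log2 fold changes -0.96 to -0.77, edgeR adjusted p from 0.0517 to 0.0779), and leaving out basal library 3 or 5 that of Col25a1 (-0.70 and -0.69, edgeR adjusted p = 0.0565 and 0.0619). Col13a1 was not tested, and its highest library held 0.625 CPM.

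Col7a1, which forms the anchoring fibrils that tie epithelial basement membranes to the stroma below, followed Col17a1 at a lower level. Its basal libraries held 42.3, 70.0, 59.4, 33.4 and 45.9 CPM and its luminal libraries 0.375, 2.79, 1.59, 3.51 and 0.825 CPM. The groups did not overlap, and the log2 fold change was -4.79 ± 0.43 (edgeR adjusted p = 2.80e-07; -3.86 with offsets for GC content and length).

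Fibril-associated collagens sit on the surface of collagen fibrils or link them to other matrix. Of the 9 genes 6 were tested, and 5 of these were higher in basal cells (83.3%, against 31.2% of all genes tested). Col16a1 stood at 132, 194, 185, 140 and 153 CPM in basal libraries 1 to 5 and at 10.9, 6.00, 6.26, 10.5 and 4.95 CPM in luminal libraries 1 to 5 (log2 fold change -4.38 ± 0.24, edgeR adjusted p = 2.00e-09; -3.79 with those offsets). Col14a1 stood at 101, 115, 102, 37.1 and 86.6 CPM in basal cells and at 0.688, 0.632, 0.552, 1.60 and 2.54 CPM in luminal cells (-6.21 ± 0.44, edgeR adjusted p = 2.11e-08). The groups were separate for both genes, with basal library 4 the lowest basal library for Col14a1. Col12a1, a close relative of Col14a1, averaged 99.9 ± 26.7 CPM in basal and 10.4 ± 4.54 CPM in luminal cells (SD, n = 5 each; -3.26 ± 0.29, edgeR adjusted p = 2.49e-07; -2.61 with offsets for GC content and length).

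Type IX collagen, best known from cartilage, is a trimer of the products of Col9a1, Col9a2 and Col9a3. Col9a2 averaged 61.9 ± 8.51 CPM in basal and 2.92 ± 1.46 CPM in luminal cells (SD, n = 5 each; -4.42 ± 0.28, edgeR adjusted p = 8.91e-09). Col9a3 averaged 22.2 ± 5.68 and 2.94 ± 0.855 CPM (-2.91 ± 0.25, edgeR adjusted p = 1.70e-07), and it shares 234 exon bases with the neighbouring gene Tcfl5. Col9a1 did not follow them: its basal libraries held at most 0.750 CPM and its luminal libraries at most 1.13 CPM. Col20a1 was the single tested gene of the class that was not called, at 6.11 ± 1.44 CPM in basal and 8.86 ± 2.84 CPM in luminal cells (0.53 ± 0.27, edgeR adjusted p = 0.0920). It passed the test on the luminal side without luminal library 1 (edgeR adjusted p = 0.0365), with scaling by library totals (0.0329) or upper quartiles (0.0445), and with offsets for GC content and length, without (0.0206) or with (0.0486) the replicate numbers as a block. Col19a1 and Col22a1 stayed at or below 0.5 CPM in every library.

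Type VI collagen forms beaded filaments from one Col6a1 chain, one Col6a2 chain and a longer partner, which in the mouse can come from Col6a3, Col6a4, Col6a5 or Col6a6. The chains did not share a pattern. Col6a1 stood at 70.8, 56.5, 42.7, 33.7 and 44.4 CPM in basal libraries 1 to 5 and at 3.19, 1.37, 2.39, 5.12 and 3.93 CPM in luminal libraries 1 to 5 (log2 fold change -3.97 ± 0.32, edgeR adjusted p = 7.50e-08). Col6a2 averaged 12.2 ± 4.56 CPM in basal and 1.66 ± 0.457 CPM in luminal cells (SD, n = 5 each; -2.87 ± 0.32, edgeR adjusted p = 2.42e-06). Both common chains were thus higher in basal cells with no overlap between the groups.

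Among the longer partners, Col6a4 was higher in basal and Col6a3 in luminal cells. Col6a4 stood at 9.29, 10.03, 9.83, 10.4 and 14.4 CPM in basal libraries and at 0.438, 0.0527, 0, 0.458 and 0 CPM in luminal libraries, where its highest count was 7 (-5.86 ± 0.59, edgeR adjusted p = 8.68e-07; -6.48 without luminal library 1 and -6.58 with limma voom). Col6a3 stood at 76.5, 1.37, 14.5, 12.2 and 16.1 CPM in luminal libraries 1 to 5 and at 1.56, 0.546, 1.16, 0 and 1.02 CPM in basal libraries 1 to 5. The luminal libraries were thus very uneven, with library 1 far above the others and library 2 within the basal range. Col6a3 was called higher in luminal cells (4.81 ± 0.90, edgeR adjusted p = 3.09e-04), and without luminal library 1 its log2 fold change was 3.69 (edgeR adjusted p = 5.67e-04). Dcn, the fibroblast proteoglycan decorin, was also highest in luminal library 1, at 95.1 CPM, where the remaining luminal libraries held 11.6 to 39.5 CPM, and the fibroblast markers as a list summed to 105 CPM there and to between 17.9 and 52.6 CPM in the other 4. The sum in luminal library 1 was mostly Dcn, which is a member of that list. None of the other genes of the list exceeded 9.52 CPM in a luminal library. None of them was higher in luminal library 1 than in every other luminal library. The part of fibroblasts in the Col6a3 value was not tested. Col6a6 was not called (1.51 ± 0.64, edgeR adjusted p = 0.0502): luminal library 4 held 44.5 CPM, the other luminal libraries 2.82 to 9.39 CPM and the basal libraries 2.52 to 8.94 CPM. Without that library its log2 fold change was 0.33 (edgeR adjusted p = 0.493), whereas it passed the test when luminal library 1, 2 or 3 or basal library 4 was left out (edgeR adjusted p from 0.0202 to 0.0384). Col6a6 was also called with offsets for GC content and length (2.15, edgeR adjusted p = 0.0152), upper-quartile scaling (1.64, 0.0372) and library totals (1.63, 0.0293), but not with limma voom (0.85, limma adjusted p = 0.241). Col6a5 never exceeded 0.478 CPM.

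The fibrillar collagens of the stroma were low in both sorted populations. Col1a1 stood at 5.38, 4.32, 6.26, 2.67 and 7.99 CPM in luminal libraries 1 to 5 and at 3.24, 5.39, 4.72, 1.5 and 3.06 CPM in basal libraries 1 to 5. Col1a2, its partner in type I collagen, averaged 4.84 ± 1.51 CPM in luminal and 3.55 ± 1.49 CPM in basal cells (SD, n = 5 each). Col3a1, the chain of type III collagen, stood at 3.44, 5.74, 4.97, 5.88 and 9.77 CPM in luminal libraries and at 7.73, 4.03, 4.80, 2.75 and 3.06 CPM in basal libraries. The groups overlapped for all 3 genes. None passed the test, with log2 fold changes of 0.58 ± 0.37 for Col1a1 (edgeR adjusted p = 0.185), 0.45 ± 0.35 for Col1a2 (0.270) and 0.41 ± 0.34 for Col3a1 (0.305). With offsets for GC content and length, Col1a1 was called higher in luminal cells (log2 fold change 1.014, edgeR adjusted p = 0.0178).

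Type V collagen, which starts and limits the width of type I fibrils, went with the basal cells. Col5a1 stood at 10.9, 9.96, 9.52, 7.19 and 13.9 CPM in basal libraries 1 to 5 and at 0.313, 0.737, 0.797, 0 and 0.698 CPM in luminal libraries 1 to 5 (-4.28 ± 0.47, edgeR adjusted p = 2.23e-06). Col5a2 averaged 11.7 ± 5.57 CPM in basal and 1.08 ± 0.608 CPM in luminal cells (SD, n = 5 each; -3.40 ± 0.47, edgeR adjusted p = 1.88e-05). Both genes were separate between the cell types, and both exceeded Col1a1 and Col1a2 per length in basal cells, at 1.22 and 1.77 CPM per kb against 0.604 and 0.664. On the chromosome, Col5a2 is the next collagen gene to Col3a1, 24624 bases away and facing it, and the neighbours had log2 fold changes of -3.40 and 0.41.

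Of the rarer fibrillar genes, Col27a1 was higher in basal cells (3.43 ± 0.693 against 0.413 ± 0.117 CPM, SD, n = 5 each; -3.01 ± 0.38, edgeR adjusted p = 8.04e-06). The type XI chains, which in cartilage take the place of type V, did not go together. Col11a2 was higher in luminal cells, at 8.63, 3.90, 11.8, 3.05 and 5.33 CPM against 3.55, 2.32, 0.696, 1.5 and 2.40 CPM (1.64 ± 0.45, edgeR adjusted p = 0.00536; 2.43 with offsets for GC content and length), with luminal library 4 inside the basal range. Col11a1 did not pass the test, at 0.153 to 2.69 CPM in luminal and 1.56 to 3.49 CPM in basal libraries (-0.74 ± 0.55, edgeR adjusted p = 0.254). Col2a1, Col5a3 and Col24a1 stayed at or below 0.750 CPM in every library.

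Col8a1, a short-chain collagen that builds hexagonal lattices in the matrix of vessels and the cornea, was the collagen most strongly on the luminal side. It stood at 25.7, 7.69, 12.2, 23.7 and 38.5 CPM in luminal libraries 1 to 5 and at 0.249, 0.205, 0.696, 0.438 and 0.240 CPM in basal libraries 1 to 5, where the counts were 3 to 9. All luminal libraries were above all basal ones, although they spanned a wide range among themselves. The mean was 59.0-fold higher in luminal cells (5.88 ± 0.50, edgeR adjusted p = 1.57e-07), and per length it was the third collagen of the luminal cells, at 4.22 CPM per kb. Its partner Col8a2 averaged 2.79 ± 1.66 CPM in luminal and 0.995 ± 0.622 CPM in basal cells (SD, n = 5 each; 1.48 ± 0.52, edgeR adjusted p = 0.0219), a call that ended without luminal library 5 (edgeR adjusted p = 0.0835). Col10a1, the collagen of hypertrophic cartilage, stayed at or below 0.687 CPM. Of the 2 genes outside these classes, Col26a1 was higher in basal cells, at 3.56 ± 0.294 against 0.283 ± 0.181 CPM (-3.58 ± 0.44, edgeR adjusted p = 6.22e-06), and Col28a1 stayed at or below 0.546 CPM.

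The mixture of collagen transcripts, taken per length, differed between the cell types as well as their amount. Basement-membrane collagens made up 48.4%, 58.0%, 53.8%, 38.6% and 48.0% of the summed collagen level in luminal libraries 1 to 5. In basal libraries 1 to 5 they made up 62.9%, 63.8%, 64.4%, 57.7% and 63.2%. Luminal library 2 reached just above the lowest basal library, and the means differed by -13.0 percentage points (exact two-sided permutation p = 0.0159). Without Col4a1, the collagen with the most counts, the means differed by -4.06 points (exact two-sided permutation p = 0.302). No other gene was left out in this way. Within the class the leading pair changed. Col4a5 and Col4a6 together made up 39.3% ± 8.21 of the collagen of luminal cells and 7.92% ± 0.868 of that of basal cells, whereas Col4a1 and Col4a2 made up 5.71% ± 0.833 and 43.4% ± 3.06 (SD over 5 libraries, as for the shares that follow). Transmembrane collagens made up 16.3% ± 3.94 of basal and 3.34% ± 0.530 of luminal collagen. Fibrillar collagens took 10.1% ± 2.01 of luminal and 1.18% ± 0.156 of basal collagen, although their summed level was 4.51 ± 0.986 CPM per kb in luminal and 6.30 ± 1.39 in basal cells. The total over all collagens was 44.97 ± 7.04 CPM per kb in luminal and 532 ± 76.8 in basal cells. By share, short-chain network collagens took 10.6% ± 4.86 of luminal and 0.0591% ± 0.0175 of basal collagen, and fibril-associated collagens 14.8% ± 2.83 and 15.6% ± 1.05. Beaded-filament collagens took 11.0% ± 7.08 of luminal and 3.19% ± 0.829 of basal collagen. Their share was 17.8% and 19.3% in luminal libraries 1 and 4 and 3.57% to 8.29% in the other luminal libraries. Apart from the basement-membrane share, these shares are descriptions and were not tested.

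**Figure D3:**
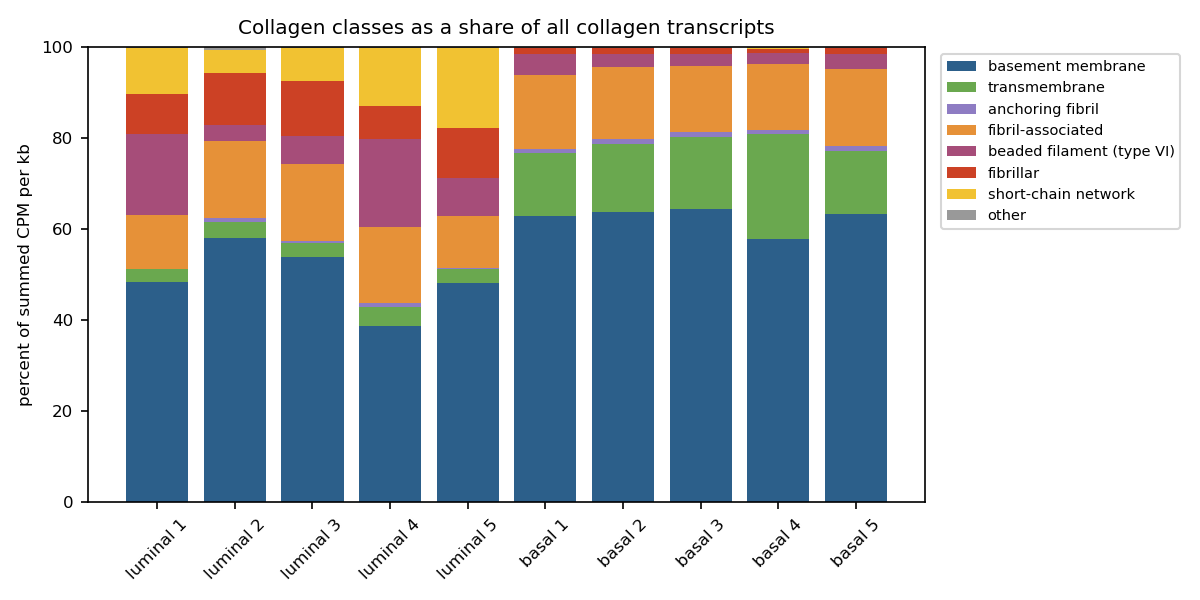
Share of each collagen class in the summed CPM per kb of all 44 collagen genes (vertical axis, percent), one bar for each library. The basement-membrane share is 38.6% to 58.0% in luminal and 57.7% to 64.4% in basal libraries. Transmembrane collagens take more of the basal bars, fibrillar and short-chain collagens more of the luminal bars, and beaded-filament collagens more of most luminal bars.

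Proportions between chains were compared in 10 ratios, most of them of chains that build one protein and one, Col4a1 to Col4a5, across the type IV networks. Of these, 6 had at least 10 counts for both chains in every library. The ratio of Col4a1 to Col4a5 per length was 0.175 ± 0.0617 in luminal and 6.78 ± 1.36 in basal cells (SD, n = 5 each), a log2 difference of -5.32 (exact permutation p = 0.00794, the smallest the design gives, and 0.0238 after Benjamini-Hochberg adjustment over the 6 ratios). Col4a5 to Col4a6 was 1.15 ± 0.138 in luminal and 0.737 ± 0.0621 in basal cells, a log2 difference of 0.64 with the same exact permutation p and adjusted value. In neither ratio did the groups overlap.

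The other ratios separated the groups less clearly. Col4a1 to Col4a2 was 1.58 ± 0.356 in luminal and 1.07 ± 0.115 in basal cells (log2 difference 0.55, exact permutation p = 0.0238, adjusted 0.0357). Col6a1 to Col6a2 was 2.29 ± 1.29 and 4.86 ± 1.10 (-1.22, exact permutation p = 0.0238, adjusted 0.0357), and Col9a2 to Col9a3 was 1.15 ± 0.824 and 3.12 ± 1.17 (-1.61, exact permutation p = 0.0317, adjusted 0.0381). Groups overlapped in all 3, and each of the 3 lost its call when most single libraries were left out, with adjusted exact permutation p from 0.0571 to 0.0762. These were luminal library 1, 2, 4 or 5 or basal library 2, 3, 4 or 5 for Col4a1 to Col4a2 (log2 differences 0.45 to 0.59), luminal library 1, 2, 3 or 5 or basal library 2, 3, 4 or 5 for Col6a1 to Col6a2 (-1.32 to -0.98), and luminal library 1, 2, 3 or 5 or any basal library for Col9a2 to Col9a3 (-1.72 to -1.36). With 1 library left out, the smallest exact permutation p the design gives is 0.0159 before adjustment, against 0.00794 with all libraries. The lost calls therefore cannot show whether these ratios are unstable, and their differences kept their sign in every such fit. The chains of type I collagen gave 1.12 ± 0.708 and 0.907 ± 0.152 (0.13, exact permutation p = 0.786), and the difference took the other sign, -0.18, without luminal library 3.

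**Figure D4:**
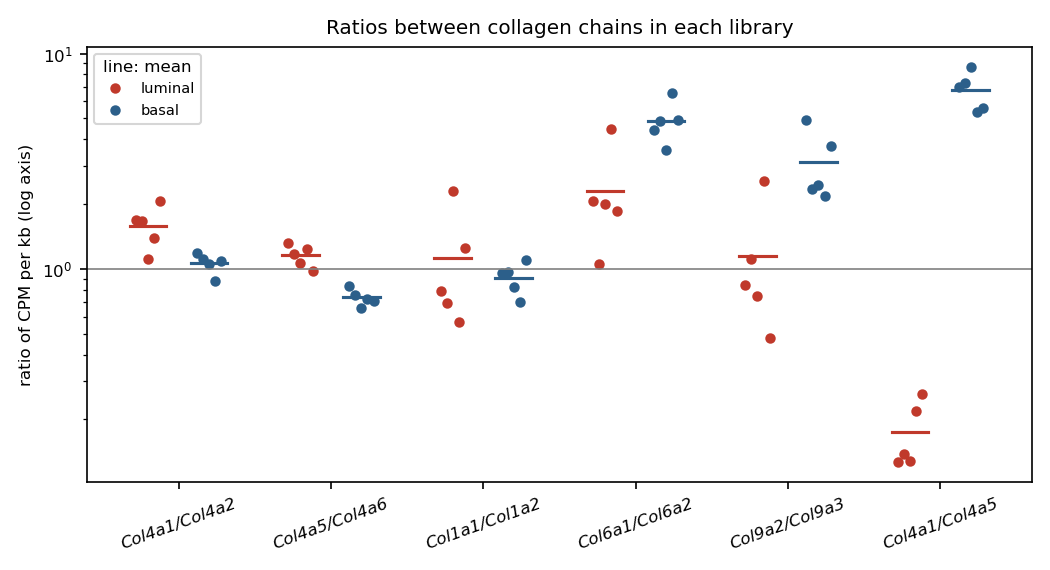
Ratio of CPM per kb (log axis) for 6 pairs of collagen chains in the 5 luminal (red) and 5 basal (blue) libraries, with the mean of each group as a line and equal levels as a grey line. Col4a1/Col4a5 separates the groups widely, at 0.175 and 6.78 on average, and Col4a5/Col4a6 by a small margin.

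Genes that serve the folding, modification and secretion of collagen chains were mostly higher in basal cells: 16 of the 19 tested of a list of 20 were called there, or 84.2% against 31.2% of all genes tested. None was called in luminal cells, against 33.6% of all genes tested, and the median log2 fold change was -1.17. Serpinh1, the collagen chaperone HSP47, stood at 1991, 1990, 2453, 2054 and 1824 CPM in basal libraries 1 to 5 and at 105, 72.2, 61.1, 64.5 and 179 CPM in luminal libraries 1 to 5. The groups were far apart, and the log2 fold change was -4.42 ± 0.31 (edgeR adjusted p = 1.91e-08). P3h2 and P3h1, which hydroxylate proline at its 3 position, averaged 33.5 ± 5.45 and 30.5 ± 7.74 CPM in basal cells and 0.664 ± 0.309 and 1.03 ± 0.602 CPM in luminal cells (SD, n = 5 each). Their log2 fold changes were -5.63 ± 0.31 (edgeR adjusted p = 2.33e-09) and -4.84 ± 0.40 (edgeR adjusted p = 1.08e-07). Colgalt2, Fkbp14 and Creb3l1 did not pass the test.

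For propeptide processing 2 of the 6 tested genes of a list of 10 were higher in basal and 2 in luminal cells, 33.3% each, which is near the 31.2% and 33.6% of all genes tested. Bmp1, which removes the C-terminal propeptide, averaged 134 ± 20.8 CPM in basal and 54.1 ± 11.9 CPM in luminal cells (SD, n = 5 each; -1.31 ± 0.18, edgeR adjusted p = 1.59e-05). Adamts2, which removes the N-terminal propeptide, averaged 10.7 ± 3.40 and 1.02 ± 0.884 CPM (-3.35 ± 0.47, edgeR adjusted p = 2.24e-05; -3.99 without luminal library 2). Mep1b, a subunit of the meprin proteases, averaged 22.9 ± 6.58 CPM in luminal and 11.7 ± 3.05 CPM in basal cells (0.97 ± 0.23, edgeR adjusted p = 0.00196). Among 7 crosslinking genes, all tested, 3 were higher in basal cells (42.9%, against 31.2% of all genes tested) and 1 in luminal cells (14.3%, against 33.6%). Loxl3, a lysyl oxidase, averaged 38.0 ± 5.64 CPM in basal and 2.92 ± 1.58 CPM in luminal cells (-3.68 ± 0.29, edgeR adjusted p = 7.47e-08). Tgm2, tissue transglutaminase, was the one on the luminal side, at 1872, 463, 890, 717 and 1319 CPM against 206 to 337 CPM (1.97 ± 0.32, edgeR adjusted p = 8.20e-05). Pxdn, the peroxidase that crosslinks type IV collagen, averaged 57.0 ± 17.9 CPM in luminal and 60.9 ± 17.8 CPM in basal cells and did not pass the test (-0.09 ± 0.23, edgeR adjusted p = 0.742).

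Of the collagen receptors 3 of the 8 tested of a list of 10 were higher in basal and 2 in luminal cells, or 37.5% and 25%, near the 31.2% and 33.6% of all genes tested. Itga1, the integrin alpha chain that prefers type IV collagen, stood at 173, 244, 244, 139 and 158 CPM in basal libraries 1 to 5 and at 16.2, 8.64, 11.2, 16.9 and 13.6 CPM in luminal libraries 1 to 5 (-3.85 ± 0.23, edgeR adjusted p = 4.71e-09; -3.23 with offsets for GC content and length). Itga2, the alpha chain that prefers fibrillar collagen, stood at 58.3, 43.7, 52.6, 39.4 and 50.1 CPM in luminal cells and at 26.3, 16.9, 30.0, 22.8 and 23.6 CPM in basal cells (1.03 ± 0.17, edgeR adjusted p = 1.04e-04). The alpha chains thus went opposite ways without overlap between groups, while Itgb1, the beta chain they share, averaged 804 ± 77.0 CPM in basal and 386 ± 83.6 CPM in luminal cells (SD, n = 5 each; -1.06 ± 0.17, edgeR adjusted p = 7.46e-05). Itga10, at 30.0 ± 5.29 CPM in luminal and 27.1 ± 3.08 CPM in basal cells, and Itga11, at 1.57 ± 0.556 and 1.67 ± 0.953 CPM, did not pass the test (edgeR adjusted p = 0.422 and 0.871). Of the collagen-binding receptor kinases, Ddr2 was higher in basal cells, at 22.7 ± 3.04 against 1.12 ± 0.517 CPM (-4.35 ± 0.29, edgeR adjusted p = 1.29e-08), and Ddr1 in luminal cells, at 291 ± 52.0 against 206 ± 23.7 CPM (0.50 ± 0.15, edgeR adjusted p = 0.00976).

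Of 9 genes for proteins that tie type IV collagen into the basement membrane or bind it, 7 were higher in basal cells (77.8%, against 31.2% of all genes tested) and 1, Smoc1, in luminal cells (11.1%, against 33.6%), with a median log2 fold change of -3.82. Of the 9, 4 reached the minimum of the filter on low counts in all basal but not all luminal libraries, and 1 in all luminal but not all basal libraries. Sparc, a calcium-binding protein that binds collagen, stood at 802, 1230, 1388, 748 and 767 CPM in basal libraries 1 to 5 and at 5.38, 8.01, 8.04, 1.53 and 12.4 CPM in luminal libraries 1 to 5 (-7.12 ± 0.47, edgeR adjusted p = 1.04e-08). Fbln1 averaged 43.6 ± 16.3 CPM in basal and 0.717 ± 0.725 CPM in luminal cells (SD, n = 5 each; -5.87 ± 0.53, edgeR adjusted p = 2.66e-07; -6.52 without luminal library 5 and -6.53 with limma voom). Fbln2, like Fbln1 a fibulin of basement membranes and elastic fibres, averaged 69.0 ± 27.4 and 1.69 ± 1.02 CPM (-5.31 ± 0.49, edgeR adjusted p = 3.76e-07; -5.95 with limma voom). Of the 5 tested of 8 small proteoglycans that coat fibrils, 3 were higher in basal cells (60%, against 31.2%) and 1 in luminal cells (20%, against 33.6%). Of the 3, 1, Fmod, reached the minimum of the filter in no luminal library. Bgn, biglycan, averaged 295 ± 104 CPM in basal and 3.18 ± 1.21 CPM in luminal cells (-6.52 ± 0.35, edgeR adjusted p = 1.45e-09), and Prelp 308 ± 65.1 and 52.0 ± 30.2 CPM (-2.57 ± 0.36, edgeR adjusted p = 2.06e-05). Fmod, fibromodulin, averaged 19.9 ± 8.23 CPM in basal cells, while no luminal library held more than 2 counts, so that the basal mean was at least 105-fold higher than a floor of 3 counts in each luminal library (edgeR adjusted p = 6.18e-09). Dcn was the one on the luminal side (1.67 ± 0.43, edgeR adjusted p = 0.00364; 1.02 without luminal library 1), and with the replicate numbers as a block together with offsets for GC content and length it was not called (0.94, edgeR adjusted p = 0.0698).

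Other cells of the gland make collagen too, and their markers were read in the same libraries. Of 10 fibroblast markers 4 were tested; Pdgfra was higher in basal cells, Dcn in luminal cells, Lum stayed at or below 1.41 CPM in every library and Tcf21 had no count in any. The summed fibroblast level was 17.9 to 105 CPM in luminal libraries, mostly Dcn, and 24.9 to 33.0 CPM in basal libraries. Of 7 pericyte markers, which mark cells of vessel walls rich in type IV collagen, 4 of the 5 tested were higher in basal cells (80%, against 31.2% of all genes tested). These 4 reached the minimum of the filter on low counts in all basal but not all luminal libraries. Of them, 2, Cspg4 and Kcnj8, reached it in no luminal library, so that the filter itself raises this share. Rgs5 stood at 16.9 to 28.9 CPM and Pdgfrb at 6.86 to 13.1 CPM in basal libraries, against at most 0.797 and 1.33 CPM in luminal libraries. Notch3, which luminal cells express too, was higher in luminal libraries and lifted the pericyte sum to between 94.9 and 269 CPM there, against 35.4 to 48.8 CPM in basal libraries. Higd1b had no count in any library. Of 8 endothelial markers 2 of the 5 tested were higher in basal cells (40%, near the 31.2% of all genes tested), Cdh5 at 2.69 to 6.69 CPM and Esam at 1.63 to 2.56 CPM there, and Vwf was higher in luminal cells. Neither Cdh5 nor Esam reached the minimum of the filter in any luminal library. The endothelial sum was 69.4 to 117 CPM in luminal libraries, mostly Vwf, and 10.1 to 20.6 CPM in basal libraries, and Kdr never exceeded 0.955 CPM. The part of these cells in the basal levels of Col4a1, Col4a2, Col15a1 and Col18a1 was not tested. Nerve sheath markers summed to 9.82 to 19.6 CPM in luminal and 3.02 to 5.81 CPM in basal libraries, adipocyte markers to 0.611 to 2.26 and 3.95 to 8.88 CPM, and immune markers to 4.50 to 11.6 and 12.2 to 34.8 CPM. The immune sum in basal libraries was mostly Cd74, at 11.6 to 30.5 CPM there, while the other tested immune markers, Cd52 and Lyz2, were called higher in luminal cells. Adipoq and Cd3e had no count in any library. Markers of the sorted populations themselves were read in the same way. Basal markers summed to 26.5 to 78.9 CPM in luminal and 10378.4 to 14862.5 CPM in basal libraries. Luminal markers summed to 1358 to 1762 CPM in basal and 10038 to 14459 CPM in luminal libraries. The part of basal cells in the luminal levels of Col4a1, Col4a2 and Col17a1, and in the luminal shares and ratios, was not tested.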

How the data were processed

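Total RNA of sorted cells was made into libraries with a kit that does not mark strand. The authors deposited a single table of read counts per gene, keyed by Entrez identifier and not normalized; their processing notes name cutadapt 4.2, Bowtie2 2.3.5.1 and the builds mm10 and hg19. The counting step is not given in the sources used here. Bowtie2 does not split reads across introns, and collagen exons are short: the median exon length had a median of 63 bases over the collagen genes and 144 bases over the genes tested, and for 18 collagen genes it was 54 bases. How far this lowers their counts was not tested.

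Identifiers were matched to symbols for 24570 of 24594 genes. Genes were kept by edgeR's filterByExpr (minimum count 10 and total 15), scaled by TMM and tested with edgeR's quasi-likelihood test (edgeR 4.0.16, R 4.3.3) on cell type alone, with Benjamini-Hochberg adjustment and a threshold of 0.05. Shares and chain ratios were compared by exact permutation (SciPy 1.17.1). Transcript lengths came from GENCODE for GRCm38. The script was tested on simulated data. Alternatives were other scalings, filters, DESeq2 1.42.0, limma 3.58.1 (voom), offsets for GC content and length, a replicate block, and leaving out each of the 10 libraries. Counts set the precision at low levels. Errors are SDs between libraries or edgeR SEs, and floors of 3 counts cover counting error only.

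Every collagen gene was accounted for; from each pathway list up to 3 called genes in each direction with the largest change and at least 10 CPM in the higher group were named. Smoc1, Colgalt2, Fkbp14, Creb3l1, Itga10, Itga11 and Pxdn were named after their values were seen. The members and lists were chosen with earlier results of these data known.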

Additional observations from a re-analysis of the deposited data

Results flagged for a closer look

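In 5 of 66 groups of 5 libraries, 1 library stood apart from the rest by Dixon's ratio; chance alone gives about 1 group in 20. Col6a3 in luminal library 1 was at 76.5 CPM, where the other luminal libraries held 1.37 to 16.1 CPM. Col6a6 in luminal library 4 was at 44.5 CPM, beside 2.82 to 9.39 CPM in the others. Col4a4 in the same luminal library was at 3.74 CPM, beside 0 to 0.981 CPM. Col18a1 in basal library 4 was at 251.8 CPM, below the 329 to 356 CPM of the other basal libraries. Col6a4 in basal library 5 was at 14.4 CPM, above the 9.29 to 10.4 CPM of the others.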

How the results depend on the processing

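Over the alternatives run for each, 20 for the 19 tested collagen genes with at least 10 counts in every library and 19 for the other 14, none changed direction; 611 values kept their side of the threshold, 18 values of 4 genes gained a call and 17 values of 3 genes lost it. Counts of collagen genes higher in basal and in luminal cells were 22 and 4 with DESeq2 and with limma voom, 14 and 1 when only genes with at least 10 counts in every library were tested, and 7 on the luminal side with offsets for GC content and length, with or without the block. Over the 10 fits without 1 library they were 20 to 23 and 3 to 6. Scaling by library totals moved the median log2 fold change of all genes by 0.19 and upper-quartile scaling by 0.12.

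Luminal and basal libraries share replicate numbers and a leading number in the description, which no label defines as an animal, batch or day: the correlations of their deviations from the group means ran from -0.105 to 0.169, and 2 luminal and 1 basal library correlated best with their own number. With the replicate block 9279 rather than 9462 genes were called, 20 collagen genes on the basal side and 5 on the luminal side, Col23a1 and Col25a1 lost their call (edgeR adjusted p = 0.0547 and 0.0533) and Col6a6 gained one (0.0496). Sign flips within 5 numbered pairs cannot give a p below 0.0625, and with this replicate block the collagen share (-3.32), the basement-membrane share (-13.0) and the log2 chain ratios Col4a1/Col4a2 (0.55), Col4a5/Col4a6 (0.64), Col6a1/Col6a2 (-1.22), Col9a2/Col9a3 (-1.61) and Col4a1/Col4a5 (-5.32) could not pass. Without Col4a1 the basement-membrane share differed by -4.06 points. Leaving out single libraries gave log2 differences of 0.45 to 0.67 for Col4a1/Col4a2, -0.18 to 0.32 for Col1a1/Col1a2, -1.50 to -0.98 for Col6a1/Col6a2 and -1.96 to -1.36 for Col9a2/Col9a3. Fewer libraries also raise the smallest exact permutation p, to 0.0159 before adjustment, and why calls were lost was not tested beyond that. Depth limits the 11 untested collagens, where no difference was detectable.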
